A study of Caenorhabditis elegans with 9 samples.

Results

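The DNA replication licensing genes described here are 9 loci of Caenorhabditis elegans, chosen by their sequence names for their role in replication: mcm-2, mcm-3, mcm-4, mcm-5, mcm-6 and mcm-7, the MCM loader cdt-1, the sliding clamp gene pcn-1 and the ribonucleotide reductase gene rnr-1. They, and the gene lists used further below, were chosen with earlier results of these data known. Shares of all loci given beside their counts are therefore a description and not an independent test. The members are 9 of 43901 loci in the expression table, and all 9 were among the 19567 loci that reached a mean coverage of 1 and were tested. The table came from a study of emerin (EMR-1) and LEM-2, which are integral proteins of the inner nuclear membrane, and the comparisons ask how the RNA of these genes differs when one or both proteins are removed. Poly(A) RNA was sequenced from whole, non-gravid young adults, with 9 libraries in 4 genotypes.

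Of the libraries, 2 were labelled emr-1(RNAi) lem-2(tm1582): strain BN19, homozygous for the lem-2 allele tm1582, fed bacteria that made double-stranded RNA of the full emr-1 cDNA. These are called the double-depletion libraries here, after their label. A further 2 libraries came from emr-1(gk119), a null allele in strain BN20, 2 from lem-2(tm1582) in strain BN19, and 3 from wild type N2. All cultures held about 40000 worms that were started as synchronized L1 larvae and grown for 53 h at 20 °C in liquid S-medium with RNAi bacteria and 1 mM IPTG. The control bacteria made double-stranded RNA of an unrelated stretch of the empty L4440 plasmid; the labels do not say library by library which bacteria were fed. Which libraries shared a sequencing lane is not given in the sources used here, so lane and genotype cannot be told apart. The study's methods give a different strain name for 2 of the 9 libraries, and the strains above are those of the labels. The double-depletion libraries combine a deletion with RNAi, whereas emr-1(gk119) is a deletion, so the method of emr-1 removal differs between them.

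DNA replication in eukaryotes is licensed in G1, when the origin recognition complex, CDC-6 and CDT-1 load rings of the MCM proteins onto DNA as an inactive helicase. In S phase this helicase is activated, PCNA (the product of pcn-1) clamps the polymerases to the template, and ribonucleotide reductase supplies deoxynucleotides. In the adult worm somatic cells have stopped dividing, and the dividing cells are those of the germ line, where oocytes also store maternal mRNA for the embryo.

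Values are the authors' coverage, that is the median depth over the bases of an exon, quantile-normalized and then summarized as the median over exons. Coverage is a level per base of exon, so levels of different genes can be set side by side within limits. The level of a locus with 2 transcript rows is the mean of both. For wild type these rows averaged 108.9 and 24.9 for mcm-2, and 149.4 and 333.3 for mcm-6. The emr-1 gene itself had coverages of 134.8 and 73.5 for the double-depletion libraries, 0 and 1.5 for emr-1(gk119), 44.5 and 44.4 for lem-2(tm1582), and 52.1, 44.6 and 60.5 for wild type. Reads of emr-1 mRNA and of the fed double-stranded RNA cannot be told apart in the double-depletion libraries, so emr-1 coverage does not check that label. The lem-2 gene had coverages of 28.9 and 30.5 for the double-depletion libraries, 16.1 and 23.8 for emr-1(gk119), 54 and 53.3 for lem-2(tm1582), and 32.2, 29.3 and 39 for wild type. In emr-1(gk119) lem-2 was itself called lower than in wild type, with a log2 change of -0.74 (limma adjusted p = 0.0481). A median over exons need not show a deletion of part of a gene, and the 2 lem-2(tm1582) libraries had the highest lem-2 levels, so lem-2 coverage does not check the BN19 labels either. For the double depletion, the study's methods state that worms kept in culture for longer gave inviable embryos. The upper quartile of coverage was 16.3 to 16.9 for the double-depletion libraries, 13.6 to 14.4 for emr-1(gk119), 13.6 to 13.9 for lem-2(tm1582) and 12.1 to 12.7 for wild type.

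All 9 licensing genes fell in the double-depletion libraries relative to wild type, to between 25.7% and 46.0% of the wild-type mean coverage. In the limma test with Benjamini-Hochberg adjustment over all loci, 9 of 9 passed an adjusted p of 0.05, where 12.0% of all loci tested were called lower. Both double-depletion libraries lay below every wild-type library for 9 of 9 members, against 19.2% of all loci. The median log2 change of the members was -1.77, with a range of -1.94 to -1.11, while the median over all loci tested was 0.35 and that over the 8110 loci whose mean coverage was 20 or more was 0.10. All log2 changes are on the scale of log2(coverage + 1).

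The 6 MCM genes encode the subunits of the hexameric helicase. Their coordinates are those of the Ensembl annotation of WBcel235. For mcm-2 (Y17G7B.5, chromosome II, 12001509 to 12006625, reverse strand) the coverage was 18.8 and 21.7 for the double-depletion libraries, 40.7 and 46.6 for emr-1(gk119), 50.1 and 65.6 for lem-2(tm1582), and 69.3, 65.2 and 66.2 for wild type. The double-depletion libraries were the lowest, both emr-1(gk119) libraries were between them and the rest, and 1 lem-2(tm1582) library lay among the wild-type values. The log2 change of mcm-2 in the double-depletion libraries was -1.68 ± 0.16 (SE; limma adjusted p = 0.000933).

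For mcm-3 (C25D7.6, chromosome V, 15056719 to 15059599, reverse strand) the coverage was 34.7 and 32.1 for the double-depletion libraries, 61.4 and 73.0 for emr-1(gk119), 84.1 and 100.9 for lem-2(tm1582), and 120.2, 142.2 and 109.7 for wild type. No library of mcm-3 overlapped another genotype, and the 4 genotypes stood in the order double, emr-1(gk119), lem-2(tm1582), wild type. In the double-depletion libraries mcm-3 changed by -1.86 ± 0.17 on the log2 scale (SE; limma adjusted p = 0.000744).

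MCM-4 is, with MCM-6 and MCM-7, part of the helicase core. For mcm-4 (Y39G10AR.14, chromosome I, 2318291 to 2321817, reverse strand), the least covered of the MCM genes, the coverage was 10.5 and 13.1 for the double-depletion libraries, 24.6 and 29.4 for emr-1(gk119), 35.6 and 39.8 for lem-2(tm1582), and 51.3, 41.9 and 35.8 for wild type. The double-depletion libraries were apart from all others, and lem-2(tm1582) and wild type overlapped. The log2 change of mcm-4 was -1.77 ± 0.20 in the double-depletion libraries (SE; limma adjusted p = 0.00131).

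For mcm-5 (R10E4.4, chromosome III, 4288264 to 4291266, reverse strand) the coverage was 38.8 and 46.3 for the double-depletion libraries, 90.2 and 96.3 for emr-1(gk119), 112.7 and 122.2 for lem-2(tm1582), and 152.6, 167.1 and 144.1 for wild type. The genotypes did not overlap and kept the order seen for mcm-3. Its log2 change was -1.84 ± 0.14 in the double-depletion libraries (SE), with the smallest adjusted p of the 9 genes (limma, 0.000548).

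For mcm-7 (F32D1.10, chromosome V, 4347166 to 4349768, forward strand) the coverage was 47.9 and 48.5 for the double-depletion libraries, 81.3 and 92.0 for emr-1(gk119), 134.0 and 173.8 for lem-2(tm1582), and 173.1, 185.8 and 203.7 for wild type. The double-depletion libraries were nearly equal and lowest, and the higher lem-2(tm1582) library lay within the wild-type range. This was the member with the largest fall, with a log2 change of -1.94 ± 0.15 (SE; limma adjusted p = 0.000621) and 25.7% of the wild-type mean.

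For mcm-6 (ZK632.1, chromosome III, 9794367 to 9798644, forward strand), the most covered member, the coverage was 108.3 and 113.7 for the double-depletion libraries, 163.2 and 155.6 for emr-1(gk119), 203.2 and 224.2 for lem-2(tm1582), and 238.6, 256.3 and 229.1 for wild type. The genotypes again did not overlap. In these libraries mcm-6 changed by -1.11 ± 0.12 on the log2 scale (SE; limma adjusted p = 0.00111), which is the smallest fall of the 9.

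**Figure D1:**
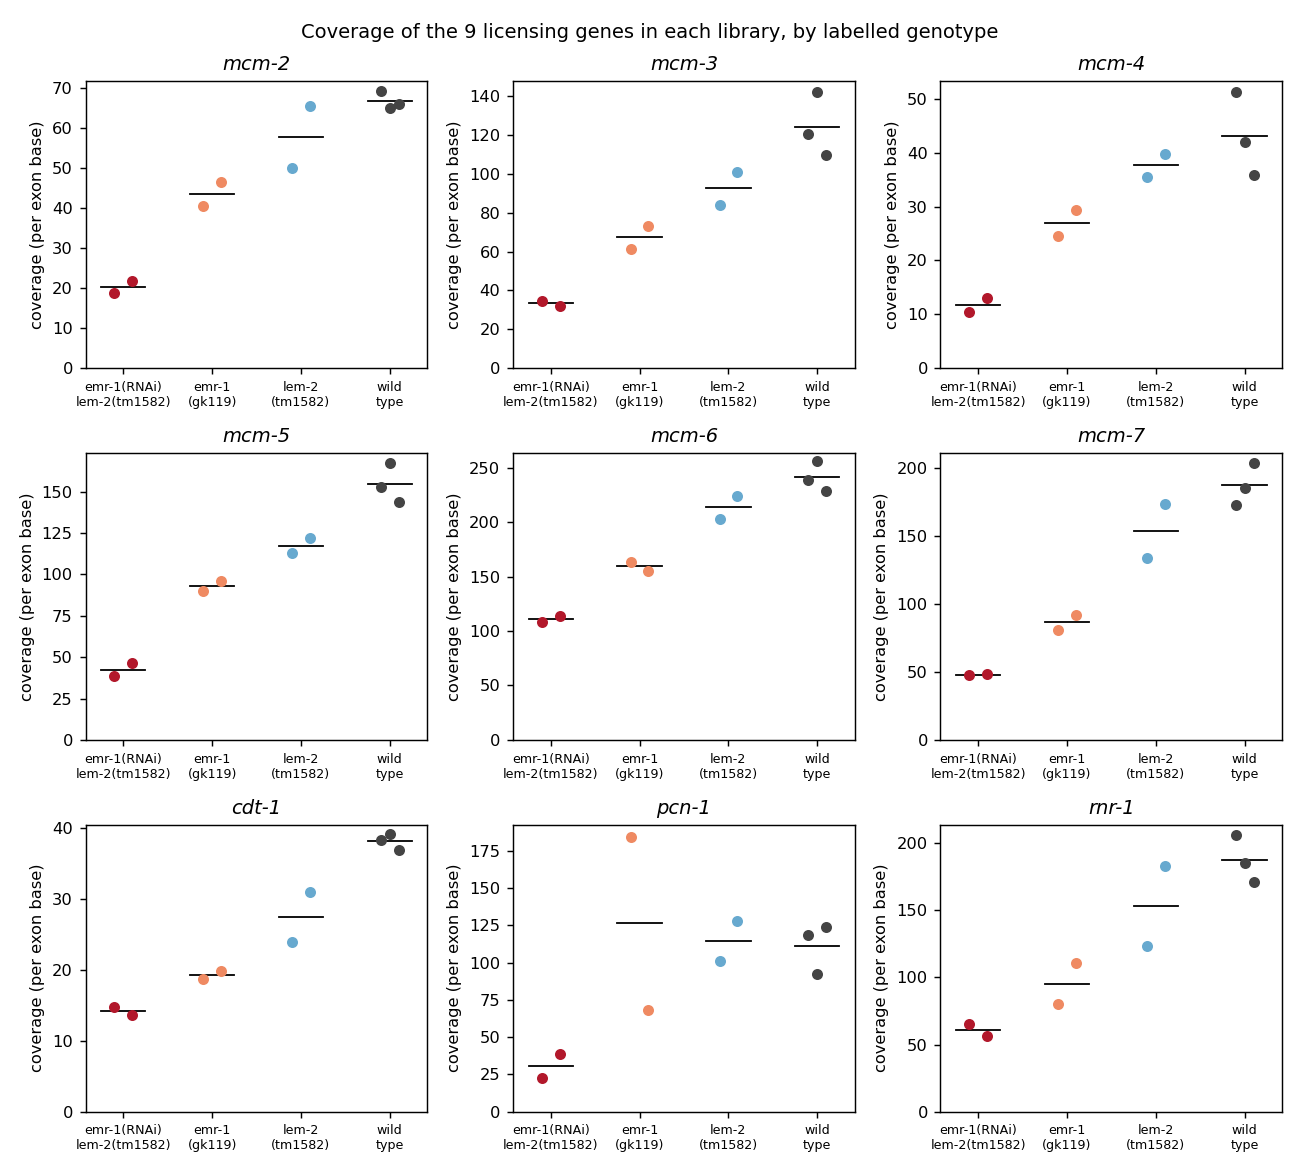
Coverage per exon base of each licensing gene (vertical axes, each from 0) in the 9 libraries, grouped by labelled genotype on the horizontal axis; points are libraries and lines are group means (n = 2, 2, 2 and 3). The double-depletion libraries are the lowest group in all 9 panels, and pcn-1 is the panel in which the emr-1(gk119) libraries lie on both sides of wild type.

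The value of mcm-6 is the mean of 2 transcript rows, and these differed. In the annotation the transcript ZK632.1b consists of the last 2 of the 5 exons of ZK632.1a, so reads of those exons enter both rows. Row ZK632.1a averaged 42.8 for the double-depletion libraries, 86.6 for emr-1(gk119), 118.8 for lem-2(tm1582) and 149.4 for wild type, whereas row ZK632.1b averaged 179.2, 232.2, 308.6 and 333.3 in the same order of genotypes. Relative to wild type, the double-depletion libraries had 28.7% of the coverage in row ZK632.1a and 53.8% in row ZK632.1b, or log2 changes of -1.78 and -0.89. The change of row ZK632.1a was thus close to those of the other 5 MCM genes, which ranged from -1.94 to -1.68. The ranks of mcm-6 as the most covered member and as the smallest fall rest on row ZK632.1b. For wild type, row ZK632.1a averaged less than mcm-7, at 187.6, and cdt-1 changed less, by -1.36. The ratio of row ZK632.1b to row ZK632.1a was 3.55 and 4.99 for the double-depletion libraries, 3.31 and 2.19 for emr-1(gk119), 2.55 and 2.64 for lem-2(tm1582), and 1.92, 2.63 and 2.19 for wild type. Both double-depletion libraries had a higher ratio than any other library, a difference that was not tested.

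The other member with 2 rows was mcm-2. Row Y17G7B.5a averaged 32.5 for the double-depletion libraries, 65.7 for emr-1(gk119), 93.96 for lem-2(tm1582) and 108.9 for wild type, and row Y17G7B.5b averaged 7.94, 21.6, 21.8 and 24.9 in the same order. Both rows of mcm-2 stood at about the same share of wild type in the double-depletion libraries, 29.8% and 31.9%. In emr-1(gk119) the shares were 60.3% and 86.9%.

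**Figure D2:**
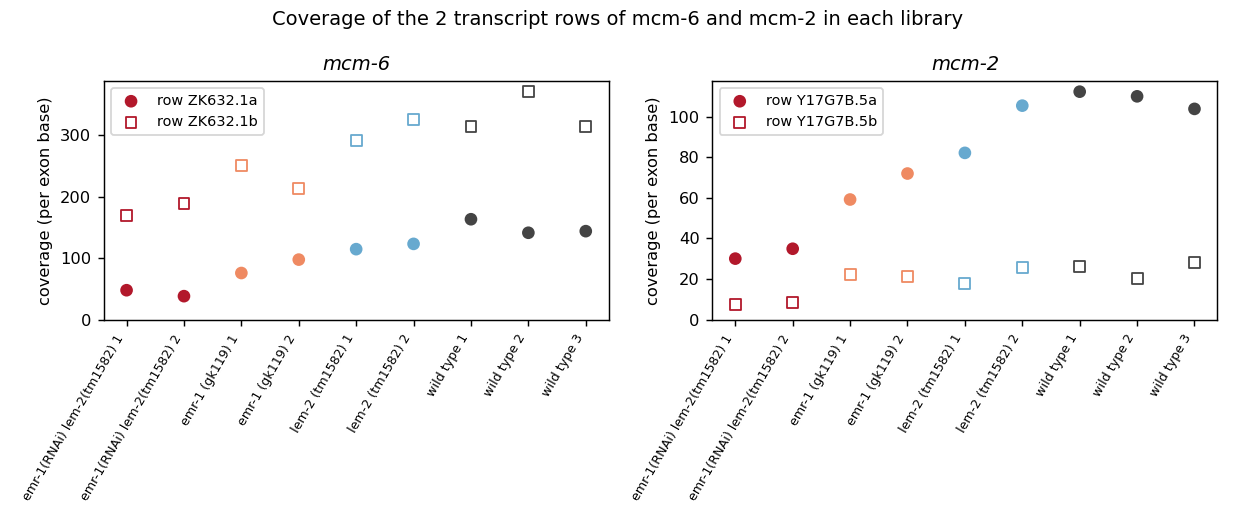
Coverage per exon base of the 2 transcript rows of mcm-6 (left) and mcm-2 (right) in each of the 9 libraries, coloured by genotype, with filled circles for the row ending in a and open squares for the row ending in b. In the double-depletion libraries ZK632.1a stands at 28.7% and ZK632.1b at 53.8% of the wild-type mean, while the rows of mcm-2 stand at 29.8% and 31.9%.

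The make-up of MCM coverage differed between genotypes as well. The summed coverage of the 6 MCM genes was 258.9 and 275.4 for the double-depletion libraries, 461.4 and 492.9 for emr-1(gk119), 619.6 and 726.5 for lem-2(tm1582), and 805.2, 858.7 and 788.7 for wild type. The share of mcm-6 in that sum was 41.8% and 41.3% for the double-depletion libraries, 35.4% and 31.6% for emr-1(gk119), 32.8% and 30.9% for lem-2(tm1582), and 29.6%, 29.9% and 29.0% for wild type. The share of mcm-7 averaged 18% for the double-depletion libraries, 18.1% for emr-1(gk119), 22.8% for lem-2(tm1582) and 23% for wild type. The higher mcm-6 share in the double-depletion libraries rests on row ZK632.1b, which stood at 53.8% of wild type there. Row ZK632.1a stood at 28.7%, and the other MCM genes at 25.7% to 30.2%. These shares follow from the rows above and were not tested.

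CDT-1 delivers MCM rings to origins and is kept from acting again within a cycle by geminin and by degradation. For cdt-1 (Y54E10A.15, chromosome I, 3223160 to 3228104, reverse strand) the coverage was 14.8 and 13.7 for the double-depletion libraries, 18.7 and 19.9 for emr-1(gk119), 23.9 and 31.0 for lem-2(tm1582), and 38.3, 39.2 and 36.9 for wild type. The 4 genotypes did not overlap, with the emr-1(gk119) libraries nearer to the double-depletion libraries than to wild type. The log2 change of cdt-1 in the double-depletion libraries was -1.36 ± 0.16 (SE; limma adjusted p = 0.00145), and in emr-1(gk119) it was -0.95 ± 0.16 (SE; limma adjusted p = 0.0107).

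The gene rnr-1 encodes the large subunit of ribonucleotide reductase. For rnr-1 (T23G5.1, chromosome III, 9225339 to 9228798, reverse strand) the coverage was 65.4 and 56.5 for the double-depletion libraries, 80.3 and 110.5 for emr-1(gk119), 123.2 and 182.9 for lem-2(tm1582), and 206.2, 185.4 and 171.1 for wild type. Both double-depletion libraries were lowest, and 1 lem-2(tm1582) library lay within the wild-type range. In the double-depletion libraries rnr-1 changed by -1.61 ± 0.22 on the log2 scale (SE; limma adjusted p = 0.00206).

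For pcn-1 (W03D2.4, chromosome IV, 4047937 to 4049448, reverse strand) the coverage was 22.3 and 39 for the double-depletion libraries, 184.5 and 68.3 for emr-1(gk119), 101.0 and 128.1 for lem-2(tm1582), and 118.3, 92.3 and 123.9 for wild type. The double-depletion libraries were the lowest, but one emr-1(gk119) library was the highest of all 9 and the other was below wild type, a gap of 1.42 on the log2 scale. The log2 change of pcn-1 in the double-depletion libraries was -1.87 ± 0.42 (SE; limma adjusted p = 0.0119). Without double-depletion replicate 1 it was -1.48 (adjusted p = 0.106), so this member's call rested on that library.

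In emr-1(gk119) 7 of the 9 genes fell relative to wild type in the limma test, where 6.27% of all loci were called lower. The called members were mcm-2, mcm-3, mcm-5, mcm-6, mcm-7, cdt-1 and rnr-1, and both libraries lay below every wild-type library for 8 of 9 members, against 19.5% of all loci. The largest of these changes was that of mcm-7, -1.11 ± 0.15 (SE; adjusted p = 0.00576), and the smallest was that of mcm-6, -0.59 ± 0.12 (SE; adjusted p = 0.0165). The 2 members not called were mcm-4, at -0.64 ± 0.20 (SE; adjusted p = 0.0694), and pcn-1, at 0.02 ± 0.42 (SE; adjusted p = 0.991). The median over the members was -0.72, against 0.01 over all loci. The number called was 3 without emr-1(gk119) replicate 1 and 2 when only emr-1(gk119) and wild type entered the fit. The call of mcm-2 (-0.61 ± 0.16 SE, limma adjusted p = 0.0447) was kept in 2 of the 9 fits that left out one library. Those of mcm-6, mcm-7 and cdt-1 were kept in 9 of 9. However, the call of mcm-6 was lost with the replicate block (limma adjusted p = 0.0504) and with only the groups compared (limma adjusted p = 0.0562).

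In lem-2(tm1582) limma called 0 of 9 members, with 3 at an unadjusted p under 0.05 (mcm-3, mcm-5 and cdt-1). The log2 changes ran from -0.47 for cdt-1 to 0.04 for pcn-1, with a median of -0.29 against 0.06 over all loci, and 8 of 9 were below 0. Both lem-2(tm1582) libraries lay below every wild-type library for 4 of 9 members (mcm-3, mcm-5, mcm-6 and cdt-1), against 12.0% of all loci. In this comparison limma called 0.0102% of all loci lower.

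**Figure D3:**
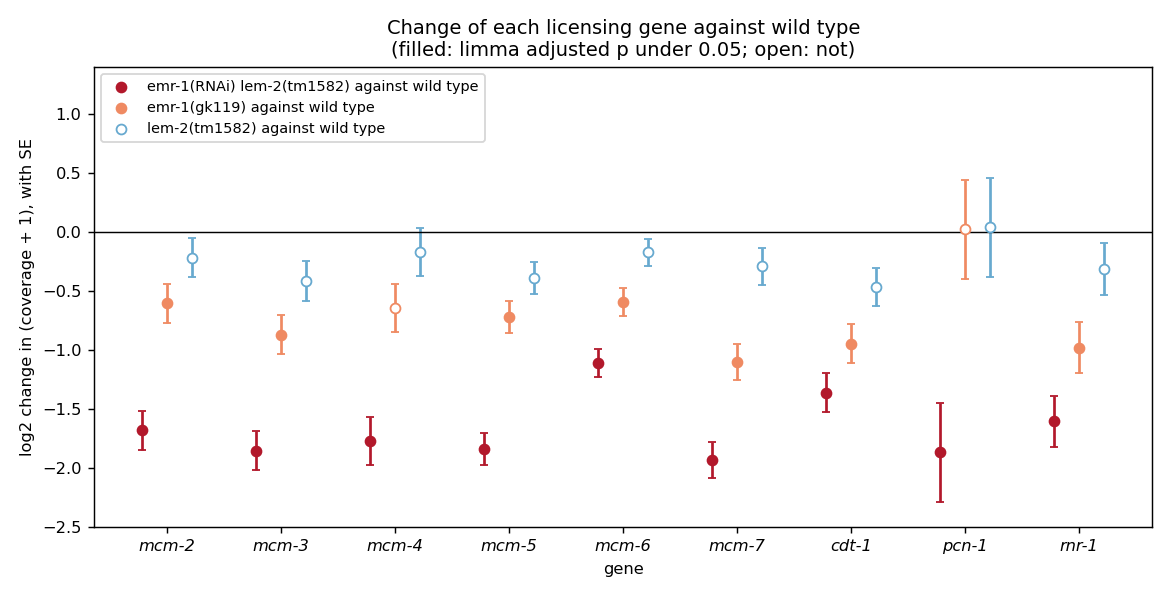
Log2 change in (coverage + 1) of each licensing gene against wild type (vertical axis) with its SE, for the double-depletion libraries, emr-1(gk119) and lem-2(tm1582); filled points passed a limma adjusted p of 0.05 and open points did not. The double-depletion libraries lie between -1.94 and -1.11, emr-1(gk119) lies above them for every gene, and lem-2(tm1582) lies nearest to 0 for 8 genes.

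The mean coverage stood in the order double, emr-1(gk119), lem-2(tm1582), wild type for 8 of the 9 members, and for pcn-1 double was followed by wild type, then lem-2(tm1582) and last emr-1(gk119). The neighbours in that order were tested directly. A moderated F test over the 4 genotypes called 9 of 9 members, against 31.2% of all loci, and pcn-1 kept that call in 2 of the 9 fits that left out one library.

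Against lem-2(tm1582), the same strain without emr-1 RNAi, the double-depletion libraries were lower for 9 of 9 members in the limma test, where 6.27% of all loci were called lower. The log2 changes ran from -1.91 for pcn-1 to -0.89 for cdt-1, with a median of -1.45 against 0.25 over all loci. Both double-depletion libraries lay below both lem-2(tm1582) libraries for 9 of 9 members, against 21.8% of all loci. The calls rested on particular libraries: without lem-2(tm1582) replicate 2 limma called 0 members and 0 loci in all, and without double-depletion replicate 1 it called 0 members and 4 loci. All 9 members kept an unadjusted p under 0.05 in both of these fits. The call of pcn-1 was kept in 4 of the 9 fits that left out one library.

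Against emr-1(gk119) the double-depletion libraries were lower for 7 of 9 members, where 2.53% of all loci were called lower. The exceptions were cdt-1, at -0.42 ± 0.18 (SE; limma adjusted p = 0.179), and rnr-1, at -0.62 ± 0.24 (SE; limma adjusted p = 0.138). The median was -0.98, against 0.22 over all loci, and both double-depletion libraries lay below both emr-1(gk119) libraries for 9 of 9 members, against 16.1% of all loci. The calls of mcm-6 (-0.52) and pcn-1 (-1.89) were kept in 1 of the 9 fits that left out one library. The number called by limma was 0 without either double-depletion library in turn, with 7 members then at an unadjusted p under 0.05 in each case. It was 2 without emr-1(gk119) replicate 2, and 4 each without wild type replicate 1, lem-2(tm1582) replicate 1 or lem-2(tm1582) replicate 2. With only these 2 genotypes in the fit limma called 0 members and 0 loci in all, and 6 members had an unadjusted p under 0.05.

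Between the single mutants, limma called 0 of 9 members, with 5 at an unadjusted p under 0.05, where 1.1% of all loci were called in either direction. The emr-1(gk119) libraries lay below both lem-2(tm1582) libraries for 8 of 9 members, against 24.1% of all loci, and the median difference was -0.45. The largest was that of mcm-7, -0.81 ± 0.17 (SE; adjusted p = 0.0719). A lower level in emr-1(gk119) than in lem-2(tm1582) was therefore not called for any member, although 7 members were called in the first and 0 in the second when each was set against wild type.

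The interaction term compared the change from emr-1 removal in the lem-2(tm1582) background, double against lem-2(tm1582), with the change in emr-1(gk119) against wild type. Limma called 0 of 9 members, with 5 at an unadjusted p under 0.05, where 0.445% of all loci were called. The interaction was below 0 for 8 of 9 members, with a median of -0.57 on the log2 scale. It was -1.93 ± 0.62 for pcn-1 (SE; adjusted p = 0.168), -0.96 ± 0.30 for mcm-4 (SE; adjusted p = 0.160), -0.86 ± 0.24 for mcm-2 (SE; adjusted p = 0.136) and 0.06 ± 0.24 for cdt-1 (SE; adjusted p = 0.929).

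Other genes of the replication machinery were read from 6 lists with 52 gene names, of which 50 matched a locus and were tested, evl-18 and cdc-45 being names of the same gene. In the double-depletion libraries 36 of these 50 fell and 0 rose relative to wild type, with a median log2 change of -1.17. Of all loci, 12.0% were called lower and 26.4% higher there. The median of these 50 ran from -1.61 to -1.04 over the alternative settings. Their count of calls shifted too, as did those of the mitosis, G1/S, germline and oocyte lists below. In emr-1(gk119) 14 fell and 0 rose, a count that was 1 with only the compared genotypes in the fit and 3 without emr-1(gk119) replicate 1 or wild type replicate 1. It was 6 without wild type replicate 2, emr-1(gk119) replicate 2 or either lem-2(tm1582) library, and 7 without wild type replicate 3. In lem-2(tm1582) limma called 0 of them, with 8 at an unadjusted p under 0.05. Of all loci tested, limma called 6.27% lower in emr-1(gk119) and 0.0102% lower in lem-2(tm1582).

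Origin recognition and MCM loading genes act at the licensing step with CDT-1 and the MCM proteins, and 7 of 7 fell in the double-depletion libraries. The largest changes were those of orc-3 (-1.64, adjusted p = 0.00173) and orc-1 (-1.64, adjusted p = 0.00131), which encode subunits of the origin recognition complex, and of gmn-1 (-1.60, adjusted p = 0.00273), which encodes geminin, the CDT-1 inhibitor. The loader gene cdc-6 changed by -0.98 (adjusted p = 0.00983). Its coverage was 32.3 and 33.2 for the double-depletion libraries, 76.8 and 54.6 for emr-1(gk119), 51.7 and 64.2 for lem-2(tm1582), and 71.2, 73.1 and 54.2 for wild type. The change of cdc-6 in emr-1(gk119) was -0.02 (limma adjusted p = 0.975), while 4 of the 7 genes of this list were called lower there.

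Of the genes that turn the loaded ring into a working helicase, 9 of 13 fell in the double-depletion libraries and 1 of 13 in emr-1(gk119). The count in emr-1(gk119) is near the share of all loci called lower there, 6.27%. The largest changes were psf-2 (-1.85, adjusted p = 0.00195), a GINS subunit, evl-18 (-1.76, adjusted p = 0.00114), the gene of the worm CDC-45 protein, and ctf-4 (-1.62, adjusted p = 0.00164). The 4 genes not called included cdc-7, the kinase that fires origins in yeast, at -0.02 (limma adjusted p = 0.988). The name sld-3 matched no locus and is not analysed here.

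Polymerase and primase genes fell for 5 of 8, led by div-1 (-1.53, adjusted p = 0.00259), pri-2 (-1.52, adjusted p = 0.00121) and pole-1 (-1.42, adjusted p = 0.00345). Clamp loading and lagging strand genes fell for 11 of 15, led by rfc-3 (-1.62, adjusted p = 0.00111), rfc-1 (-1.56, adjusted p = 0.00188) and rfc-2 (-1.55, adjusted p = 0.00217), which encode subunits of the loader that opens the PCNA clamp. In the deoxynucleotide list 3 of 4 fell. Of these dut-1, the dUTPase gene, changed by -2.56 (adjusted p = 0.00192), rnr-2, the small subunit of ribonucleotide reductase, by -2.31 (adjusted p = 0.000509) and tyms-1, thymidylate synthase, by -0.91 (limma adjusted p = 0.00947).

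The log2 changes of the subunit genes rnr-2 and rnr-1 were -2.31 and -1.61, a difference that was not tested. For rnr-2 the coverage was 119.7 and 145.2 for the double-depletion libraries, 327.1 and 267.3 for emr-1(gk119), 388.9 and 471.8 for lem-2(tm1582), and 622.8, 635.1 and 725.1 for wild type. The genotypes of rnr-2 did not overlap, and their order was that of the members. Of the genes that limit CDT-1 after licensing, cdt-2, a substrate receptor of the CUL-4 ligase, fell (-1.49, limma adjusted p = 0.00143), while cul-4 and ddb-1 were not called.

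Lists of G1/S regulators and of mitosis stand further from licensing. Of 15 G1/S genes, 9 fell and 2 rose in the double-depletion libraries. The subunits of the E2F heterodimer, dpl-1 (-2.03, adjusted p = 0.00132) and efl-1 (-1.71, adjusted p = 0.00174), fell, whereas efl-3, another E2F family gene, rose by 1.86 (adjusted p = 0.00393) in the double-depletion libraries and by 2.19 (limma adjusted p = 0.00578) in emr-1(gk119). The coverage of efl-3 was 29.1 and 19.1 for the double-depletion libraries, 26.9 and 33.7 for emr-1(gk119), 7.44 and 5.89 for lem-2(tm1582), and 8.33, 5.44 and 4.22 for wild type. Of 20 mitosis genes, 17 fell and 0 rose, led by the cyclin gene cyb-3 (-2.74, adjusted p = 0.000392), the polo kinase gene plk-1 (-1.83, adjusted p = 0.000555) and fzy-1 (-1.58, adjusted p = 0.00131), an activator of the anaphase-promoting complex.

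**Figure D4:**
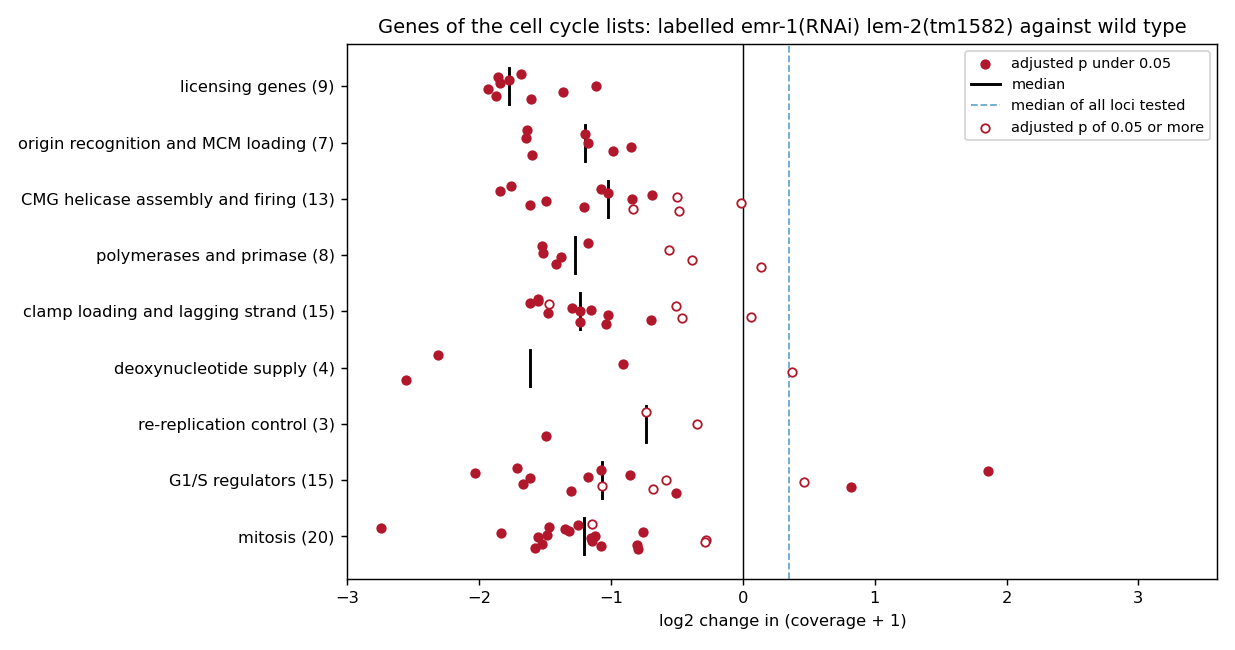
Log2 change in (coverage + 1) of the double-depletion libraries against wild type (horizontal axis) for the 9 licensing genes and the genes tested in 8 cell cycle lists (vertical axis, number of genes in parentheses); filled points passed a limma adjusted p of 0.05, open points did not, bars are list medians and the dashed line is the median of all loci tested, 0.35. The licensing genes have a median of -1.77, and most genes of the 6 replication lists (36 of 50) and of the mitosis list (17 of 20) are filled points below 0.

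As sums, markers of the germ line moved with the members, but single markers differed. The germline sum gives most weight to abundant genes such as cgh-1, which averaged 727.7 for wild type. In the double-depletion libraries glh-1, glh-2, him-3, fbf-1 and fbf-2 changed by -0.76 to -0.41 on the log2 scale and were not called. Over all loci tested, 12.0% were called lower in the double-depletion libraries and 6.27% in emr-1(gk119). The summed coverage of 16 germline markers was 555.5 to 598.3 for the double-depletion libraries, 955.6 to 1012 for emr-1(gk119), 1442 to 1797 for lem-2(tm1582) and 1823 to 2135 for wild type, and 11 of 16 fell in the double-depletion libraries. The sum of 12 oocyte markers was 618.2 to 771.0 for the double-depletion libraries, 1496 to 1534 for emr-1(gk119), 2344 to 2722 for lem-2(tm1582) and 3193 to 3360 for wild type, and 12 of 12 fell in the double-depletion libraries and 11 of 12 in emr-1(gk119), where the count was 5 to 10 with one library left out. The sum over the 9 licensing genes was 31.3% and 33.3% of the wild-type mean in the double-depletion libraries. It was 64.5% and 59.9% for the emr-1(gk119) libraries and 75.2% and 92.5% for the lem-2(tm1582) libraries. The germline and oocyte sums thus had the same order of genotypes as the licensing genes, and their part in the result was not tested. In RNA of whole animals, fewer germ cells and less RNA per germ cell cannot be told apart.

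The sum of 8 sperm markers was 252.0 to 279.9 for the double-depletion libraries, 380.8 to 381.2 for emr-1(gk119), 414.2 to 434.0 for lem-2(tm1582) and 203.6 to 276.9 for wild type, with 0 lower and 1 higher in the double-depletion libraries. The 9 early embryonic genes summed to between 5 and 11 in all 9 libraries, and 3 of them reached the minimum coverage. Of the markers of other tissues, 5 of 6 muscle, 3 of 5 hypodermal and 3 of 6 neuronal genes rose in the double-depletion libraries. There 2 of 6 intestinal, 1 of 5 hypodermal and 1 of 6 neuronal genes fell. For that comparison limma gave a higher call to 26.4% and a lower call to 12.0% of the 19567 loci. The marker counts come from short lists and were not tested against these shares. The muscle markers summed to 1661 to 1915 for the double-depletion libraries and 1013 to 1399 for emr-1(gk119). Their sums were 1716 to 1733 for lem-2(tm1582) and 716.2 to 1101 for wild type. The intestinal markers summed to 3872 to 4353 for the double-depletion libraries, 2158 to 2409 for emr-1(gk119), 4737 to 4954 for lem-2(tm1582) and 7148 to 11630 for wild type, which is not the order of the licensing genes. The 2 intestinal genes that fell in the double-depletion libraries were the yolk protein genes vit-2 and vit-6, which summed to 2457 to 3037 for the double-depletion libraries and 5756 to 10360 for wild type, whereas the other 4 summed to 1316 to 1415 for the double-depletion libraries and 1265 to 1525 for wild type. The part of these tissues in the result was not tested.

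**Figure D5:**
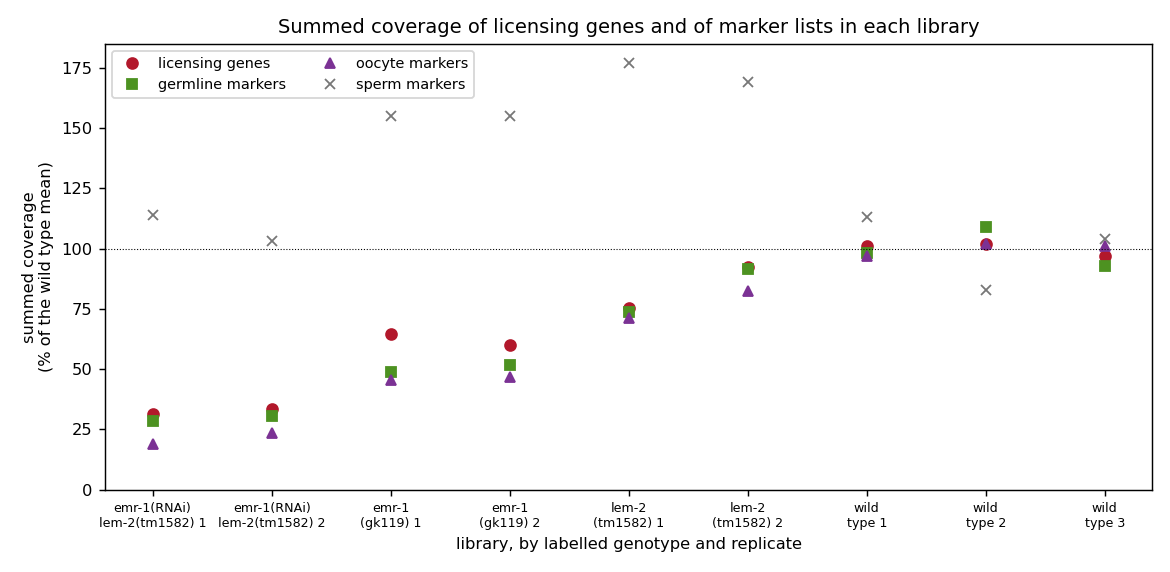
Summed coverage of the licensing genes and of germline, oocyte and sperm markers in each library, as a percentage of the wild-type mean of each list (vertical axis, from 0), by labelled genotype and replicate (horizontal axis). In the double-depletion libraries the licensing genes stand at 31.3% and 33.3%, germline markers at 28.3% and 30.5%, oocyte markers at 18.8% and 23.4%, and sperm markers at 114% and 103%.

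Among themselves the members varied alike over the libraries. As a description over the same 9 libraries, which share the genotype differences above, Pearson's r between the log2 values of pairs of members was 0.902 to 0.987 over the 28 pairs without pcn-1 and 0.633 to 0.821 for pairs with pcn-1. The 5 loci with the highest r to the mean of the members, among 8101 well covered loci that are not members, were egg-1 (r = 0.998), dsh-2 (0.997), cpg-2 (0.996), gfat-2 (0.996) and cpg-1 (0.996). The gene egg-1, also one of the 12 oocyte markers, encodes a protein of the oocyte surface needed for fertilization, and cpg-1 and cpg-2 encode chondroitin proteoglycans of the eggshell. The mean coverage of egg-1 was 95.8 for the double-depletion libraries, 248.2 for emr-1(gk119), 388.9 for lem-2(tm1582) and 546.1 for wild type.

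The replicates of a genotype were closer to each other than the double-depletion libraries were to wild type. The median absolute log2 difference of the members between replicates was 0.20 in the double-depletion libraries, 0.19 for emr-1(gk119), 0.34 for lem-2(tm1582) and 0.08 to 0.16 between pairs of wild-type libraries. In lem-2(tm1582) this spread exceeded the size of the median change from wild type, -0.29. The widest pair was that of pcn-1 in emr-1(gk119), given above. The wild-type level of the members ranked between percentile 73.8 (cdt-1) and percentile 95.4 (mcm-6) of all loci tested. They lie on chromosomes I (2), II (1), III (3), IV (1) and V (2), and 0 lie on X, which holds 13.5% of the loci tested.

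Reads of overlapping genes cannot be separated, because the library kit does not mark strand. By exon overlap, 5 members share bases with a gene on the opposite strand: mcm-2 shares 16 bases with Y17G7B.23, mcm-3 73 bases with C25D7.16, mcm-4 15 bases with ekl-7, mcm-6 4 bases with srxa-10 and mcm-7 18 bases with F32D1.3. Levels of these members are uncertain to that extent. The scaling also matters for the table as a whole: as deposited, 5164 loci rose and 2354 fell for the double-depletion libraries, against 2831 higher and 4179 lower after centring each library on its median, and 3182 higher and 3513 lower after quantile normalization over loci. The median over all loci then moved to -0.09 and -0.03, from 0.35 as deposited, and 9 of 9 members remained lower under both scalings.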

How the data were processed

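RNA was measured in 9 libraries, grouped by the genotype in the labels. The authors aligned single-end reads to WS231 with TopHat, sorted them with SAMtools, took base coverage in R and deposited a signal, the coverage per transcript described above. Count models do not apply to such values. Library depth is unknown here. Precision is judged from the spread between libraries of a genotype, which the fit pools over genotypes and moderates across loci. Whether the replicates of a genotype came from separate cultures is not given in the sources used here. The table holds 49395 transcript rows, and 15786 are 0 in all libraries. Rows were averaged per locus. Of the rows, 94.4% matched the WBcel235 annotation by transcript name, which supplied names and coordinates; none was converted between builds.

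Loci were tested on log2(coverage + 1) with limma 3.58.1 (R 4.3.3), all 9 libraries in 1 fit with a mean-variance trend, two-sided, with Benjamini-Hochberg adjustment over 19567 loci within each comparison and a threshold of 0.05. The scripts, which also used Python 3.11.15, were tested on simulated data. The study used SAM (siggenes), which was not run. Alternatives were other pseudocounts, coverage minimums, values per locus and scalings, no trend, a replicate block, only the groups compared, and each library left out.

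Members and lists were chosen with earlier results of these data known. Named were all members and the 5 loci most alike in pattern. Also named were up to 3 called genes per list with the largest change in the double-depletion libraries. The genes cdc-6, gmn-1, cdc-45 (listed as evl-18), orc-1 and rnr-2 were named whatever their result. The genes cul-4, ddb-1, cdc-7, vit-2 and vit-6 were named after their values were seen, as were cgh-1 and the germline markers not called. No sequence is shown.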

Additional observations from a re-analysis of the deposited data

How the results depend on the processing

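The fall of the licensing genes in the double-depletion libraries relative to wild type kept its direction for every member in the 9 fits that left out one library and in the 11 other alternatives. The number called was 9, except that it was 8 with the replicate block (pcn-1, -1.79, limma adjusted p = 0.0553) and without double-depletion replicate 1. The median over members ran from -1.80 to -1.63 with one library left out and from -2.21 to -1.55 under the other settings. In emr-1(gk119) against wild type, 7 members were called, 4 with the replicate block, 2 with only the groups compared, and 3 to 7 with one library left out. Against lem-2(tm1582) the double-depletion libraries had 9 called, 8 with the replicate block and 6 with only the groups compared. With one library left out they had a median over members of -1.57 to -1.31, and their calls rested on particular libraries, as given above. Against emr-1(gk119) they had 7, with 5 under the replicate block, 0 with only the groups compared and 0 to 6 with one library left out. Whether the replicate numbers pair the libraries is not known. Deviations from the group mean had correlations of -0.134 to 0.061 over 12 pairs of same-numbered libraries. In groups of 2 libraries these deviations mirror each other, so the pairs are not independent and cannot exclude a shared batch. Signs turned only for values near 0 that were not called. For pcn-1 in emr-1(gk119) against wild type the value was -0.15 after median-centring and -0.69 to 0.73 with one library left out. In lem-2(tm1582) against wild type pcn-1 was -0.012 after quantile normalization, -0.087 after median-centring and -0.13 to 0.21 with one library left out. With emr-1(gk119) set against lem-2(tm1582), pcn-1 was 0.038 after quantile normalization and -0.73 to 0.69 with one library left out. The interaction of cdt-1 was -0.16 after quantile normalization, -0.085 after median-centring and -0.125 to 0.235 with one library left out. Where 1 library is left in a group, it is assumed to vary like the other groups. The cause of these shifts was not tested.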

Other observations

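Beside the lower licensing genes, the cuticle collagen genes dpy-7 and rol-6 of the hypodermal marker list rose in the double-depletion libraries, by 3.92 (limma adjusted p = 0.000408) and 3.59 (limma adjusted p = 0.00199) on the log2 scale, and in emr-1(gk119), by 2.62 (limma adjusted p = 0.00178) and 3.05 (limma adjusted p = 0.00824). In lem-2(tm1582) their changes of 1.87 (limma adjusted p = 0.0828) and 2.13 (limma adjusted p = 0.126) did not pass. The gene bli-1 of that list rose by 2.56 (limma adjusted p = 0.00589) in the double-depletion libraries. Its changes of 1.31 in emr-1(gk119) (limma adjusted p = 0.103) and 0.59 in lem-2(tm1582) (limma adjusted p = 0.606) did not pass. The collagen gene col-19 of the same list fell, by 0.94 (limma adjusted p = 0.00337) in the double-depletion libraries and by 0.73 (limma adjusted p = 0.0184) in emr-1(gk119). These genes were picked after their values were seen. The coverage of dpy-7 was 76.9 and 61.2 for the double-depletion libraries, 25 and 29.7 for emr-1(gk119), 14.9 and 16.7 for lem-2(tm1582), and 4.17, 4.33 and 2.5 for wild type. The coverage of rol-6 was 167.7 and 128.1 for the double-depletion libraries, 71.2 and 140.4 for emr-1(gk119), 54.6 and 50.8 for lem-2(tm1582), and 17.3, 14.7 and 5.33 for wild type. For dpy-7 the genotypes stood in the reverse of the order of 8 licensing genes, with no overlap.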
